A study of Mus musculus with 4 samples.

Results

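The genes described here are 10 genes of mouse cone photoreceptors, chosen by symbol: the nuclear receptors Thrb and Rxrg, and Opn1sw, Arr3, Gnat2, Gnb3, Gngt2, Pde6c, Pde6h and Cnga3 of the cone light response. All 10 were found, as 10 of the 22690 genes in the deposited table. RNA was sequenced from retinal cells of C57BL/6 mice at postnatal day 2 that had been kept for 30 minutes in serum-free medium and sorted for a 4N DNA content, that of cells that have copied their genome and not yet divided. There were 2 libraries of GFP-positive cells labelled Casz1 cKO, a conditional knockout of the zinc finger transcription factor gene Casz1, and 2 libraries of GFP-negative cells labelled wild type. Genotype and GFP fraction therefore change together and cannot be told apart. The sources used here do not give the promoter that drives the recombinase, where the GFP comes from or how many animals stand behind a library. Per the series' design text there were 2 independent experiments, but whether they used separate animals is not said, so p-values measure only the spread between these libraries.

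Cones are the photoreceptors of daylight and colour vision, and in mice they leave the cell cycle before birth. In their outer segments an opsin that has absorbed light activates the G protein transducin, transducin releases a phosphodiesterase from its inhibitory subunit, the loss of cyclic GMP closes a cation channel, and arrestin ends the opsin's signal. Rods run the same steps with a largely separate set of proteins. The thyroid hormone receptor encoded by Thrb and the retinoid X receptor encoded by Rxrg control which opsin a mouse cone makes, and the homeodomain factor Crx binds near many photoreceptor genes.

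The libraries differed in depth. Reads in genes numbered 22326119 and 89473701 in cKO libraries A and B, against 75832360 and 83753377 in wild-type libraries A and B; the letters stand for a numeric tag that 1 library of each group shares. cKO library A stood apart, with a Pearson correlation of 0.902 to 0.918 with the other libraries across genes, against 0.988 to 0.993 among those. Casz1, the targeted gene, had normalized counts (reads divided by 1 size factor per library) of 8687 and 10772 in cKO libraries A and B, against 13162 and 11995 in wild-type libraries A and B. Each count is over the whole gene, so it does not check the deletion. None of the 9 retinal progenitor markers was at 0 in any library; 8 were higher and 1 lower in cKO, the median log2 fold change was 0.15, and limma called 0. Their sum was 142% and 112% of the wild-type mean in cKO libraries A and B, against 99.4% and 101% in wild-type libraries A and B, and Ccnd1 alone gave most of it, with 388895 and 253407 normalized counts in cKO libraries A and B against 235937 and 223698 in wild-type libraries A and B.

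Sequences before the transcript starts were taken from a table of RefSeq promoters (GRCm38.p6), in which 7 of the 10 genes were matched, with 10 entries in all; Gnb3, Gngt2 and Pde6c were not matched in that table. They are shown because the 10 genes lay on the same side of wild type, and because both receptors among them recognise the half-site AGGTCA. In the 250 bases before each start, both strands were searched for TAATCC and TAATCT, core letters that Crx recognises and that share 5 letters but cannot match at the same place on a strand, and for AGGTCA; none of the matches printed here overlap each other. One of the TAATC motifs was in 4 of the 10 entries, those of Opn1sw, Arr3, Gnat2 and Thrb, against 12.8% of all 32851 entries in the table. AGGTCA was in 3 of the 10, those of Opn1sw, Rxrg and Thrb, against 14.02% of all entries. A match describes these letters and not a bound site. In the lines below, read 5′ to 3′ on the gene's strand, capitals mark the matches, as such or as the complement. Opn1sw (chr6:29380514-29380653, minus strand) and Arr3 (chrX:100605357-100605496, plus strand) are shown for the 140 bases before the start. Gnat2 (chr3:108093035-108093064), Thrb (chr14:17660902-17660931) and Rxrg (chr1:167618165-167618194), all on the plus strand, are shown for 30 bases around a match.
Opn1sw: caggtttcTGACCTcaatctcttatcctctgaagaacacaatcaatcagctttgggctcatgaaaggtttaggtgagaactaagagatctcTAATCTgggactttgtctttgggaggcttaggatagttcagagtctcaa
Arr3: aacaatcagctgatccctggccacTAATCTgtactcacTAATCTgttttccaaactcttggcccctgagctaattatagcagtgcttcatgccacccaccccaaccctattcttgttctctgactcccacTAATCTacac
Gnat2: gggacaatccccGGATTAggaaggagctct
Thrb: cgtgacgcggcgGGATTAactttgcatggc
Rxrg: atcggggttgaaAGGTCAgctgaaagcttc

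All 10 cone genes had a lower mean in cKO than in wild type, from 15.9% of the wild-type mean for Arr3 to 77.7% for Gngt2, but none passed the test over all genes. The median log2 fold change of the 10 was −0.78, beside −0.03 over the 14480 genes tested, of which 53.3% were lower in cKO. The test was limma on log2(normalized count + 1) for genes averaging 10 or more normalized counts, with Benjamini-Hochberg adjustment over all genes. Fold changes are on this scale, where those of genes whose libraries differ widely within a group can exceed the values of other fits. Arr3 had −4.00 on it, against −2.48 in edgeR, and Pde6h had −1.37, against −0.62 in edgeR. Limma called 0 of the 10 genes at an adjusted p under 0.05, and 0% of all genes. Of the 14480 genes limma tested, 274 had an unadjusted p under 0.05. At an unadjusted p under 0.05 it had 2 of the 10, Opn1sw and Gnb3, where 1.7% of all genes were lower at that level. On the recovered reads edgeR and DESeq2 also called 0 of the 10, and over all genes edgeR called 0 and DESeq2 called 1. With edgeR 1 of the 10 had an unadjusted p under 0.05, as did 208 of the 14480 genes (170 lower). With DESeq2 it was 2 of the 10 and 369 of all genes (262 lower). In bulk RNA, fewer cones in the sort and less of these RNAs per cone cannot be told apart. A sort for 4N DNA would remove single cones that have left the cell cycle, and which of the sorted cells these RNAs come from was not tested.

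The libraries of the 2 groups did not overlap for 8 of the 10 genes, those other than Pde6c and Pde6h: both cKO libraries were below both wild-type libraries. That held for 22.3% of all genes tested. With cKO library A left out, cKO library B was below both wild-type libraries for 8 of the 10, against 32.4% of all genes. Within each tag all 10 were lower in cKO, which held for 36.6% of all genes at both tags. At tag A the median log2 ratio of the 10 was −0.80, beside −0.05 over all genes. At tag B it was −0.58, beside −0.00 over all genes. Without cKO library A, 9 of the 10 were lower, the median was −0.44 and limma called 0 of them, against 0.359% of all genes called lower. Leaving out cKO library B gave a median of −1.02, and limma then called 8 of the 10, against 26.9% of all genes called lower; both fits assume that the lone cKO library varies like the wild-type pair.

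**Figure D1:**
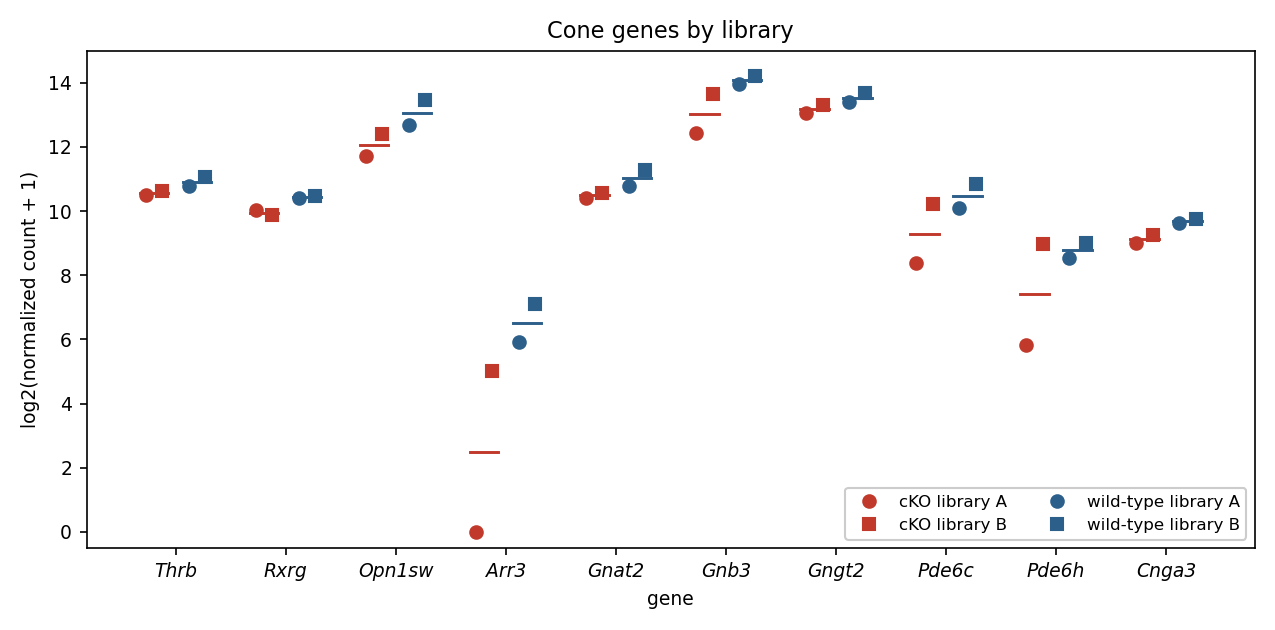
The plot shows log2(normalized count + 1) of each cone gene in each library, with cKO in red and wild type in blue, circles for tag A, squares for tag B and a line at each group's mean. The red points lie below the blue ones for 8 genes, and Pde6c and Pde6h overlap; Arr3 sits at 0 in cKO library A.

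Of the 17477 genes with a p in the authors' deposited table, 51 had an adjusted p under 0.05. None of the 10 genes was among these. An unadjusted p under 0.05 was given there to 4 of them, against 2.85% of all genes with a p in the authors' deposited table. These were Arr3 (p = 0.00874), Opn1sw (p = 0.0178), Rxrg (p = 0.0218) and Gnb3 (p = 0.0466) in the authors' deposited table. The lowest adjusted p of the 10 in the authors' deposited table was 0.830, for Arr3.

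The receptor genes differed little between libraries of a group. Thrb (ENSMUSG00000021779, chromosome 14, 17660261 to 18038090 of GRCm38, plus strand), the thyroid hormone receptor that mouse cones need for green opsin, had normalized counts of 1450 and 1564 in cKO libraries A and B, against 1774 and 2122 in wild-type libraries A and B. Both cKO libraries were below both wild-type libraries. The means were 1507 ± 80.2 in cKO and 1948 ± 247 in wild type (SD, n = 2 each), a log2 fold change of −0.37 ± 0.20 (standard error; limma, adjusted p = 0.771). Without wild-type library B it was −0.24. Several transcripts of Thrb start apart from each other, and the gene's count does not separate them.

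Rxrg (ENSMUSG00000015843, chromosome 1, 167598384 to 167639623 of GRCm38, plus strand), the retinoid X receptor that pairs with Thrb in cones and is also made in ganglion cells, had 1037 and 939 in cKO libraries A and B, against 1359 and 1411 in wild-type libraries A and B. The groups were apart, and each pair of libraries was close. The means were 988 ± 69.2 in cKO and 1385 ± 36.7 in wild type (SD, n = 2 each). The log2 fold change was −0.49 ± 0.20 (standard error; limma, adjusted p = 0.771), and over left-out libraries it lay between −0.56 and −0.42. Thrb and Rxrg were the pair among the 10 that did not pass without cKO library B.

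Opn1sw (ENSMUSG00000058831, chromosome 6, 29376671 to 29388468 of GRCm38, minus strand) encodes the short-wavelength opsin, the pigment that most mouse cones make first. It had 3361 and 5465 normalized counts in cKO libraries A and B, against 6609 and 11233 in wild-type libraries A and B. Both wild-type libraries were above both cKO libraries, and tag B was the higher library in either group. The means were 4413 ± 1488 in cKO and 8921 ± 3270 in wild type (SD, n = 2 each), and cKO was at 50.9% of wild type at tag A and at 48.7% at tag B. The log2 fold change was −1.01 ± 0.35 (standard error), with a 95% interval from −1.88 to −0.13 (limma, adjusted p = 0.771). Leaving out cKO library A gave −0.66, and leaving out wild-type library B gave −0.62.

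The exons of Opn1sw share 397 bases, 15.5% of their length, with those of Calu on the opposite strand, and although the kit kept the strand, per the series' design text, the sources used here do not say whether counting used it. Reads of these genes can therefore not be told apart there. Calu had 24414 and 16640 normalized counts in cKO libraries A and B, against 16627 and 15906 in wild-type libraries A and B. Its log2 fold change, 0.31, had the opposite sign to that of Opn1sw; its part in the Opn1sw values was not tested. The green opsin gene Opn1mw, named here after its values were seen, had 0 reads in every library, where 3 reads would stand for 8.38 and 1.98 normalized counts in cKO libraries A and B and for 2.28 and 2.07 in wild-type libraries A and B; such limits cover counting error only.

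Arr3 (ENSMUSG00000060890, chromosome X, 100605497 to 100618493 of GRCm38, plus strand), cone arrestin, which binds the activated opsin, was the lowest of the 10. It had 0 and 47 reads in cKO libraries A and B, against 78 and 197 reads in wild-type libraries A and B, or 0 and 31.1 normalized counts against 59.2 and 136. Both cKO libraries were below both wild-type libraries, and the 0 in cKO library A allows up to 8.38 normalized counts. The means were 15.5 ± 21.97 in cKO and 97.6 ± 54.3 in wild type (SD, n = 2 each). The log2 fold change was −4.00 ± 1.89 (standard error; limma, adjusted p = 0.771), and it moved with how that 0 was treated: it was −4.51 with a pseudocount of 0.5, −2.82 with 5, −2.48 in edgeR and −1.50 without cKO library A. Its shown promoter sequence held 3 TAATCT matches, and none of the other 9 entries held more than 1 TAATC match.

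Transducin has an alpha, a beta and a gamma subunit. Gnat2 (ENSMUSG00000009108, chromosome 3, 108092789 to 108101432 of GRCm38, plus strand), the cone alpha subunit that binds GTP, had 1372 and 1527 normalized counts in cKO libraries A and B, against 1769 and 2474 in wild-type libraries A and B. The groups were apart, and cKO was at 77.6% of wild type at tag A and at 61.7% at tag B. The means were 1449 ± 109 in cKO and 2122 ± 499 in wild type (SD, n = 2 each), a log2 fold change of −0.53 ± 0.24 (standard error; limma, adjusted p = 0.771), or −0.29 without wild-type library B.

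Gnb3 (ENSMUSG00000023439, chromosome 6, 124834240 to 124840275 of GRCm38, minus strand) encodes the beta subunit, which ON bipolar cells also use. It had 5532 and 12738 normalized counts in cKO libraries A and B, against 16044 and 18907 in wild-type libraries A and B. The groups did not overlap, but cKO library A was far below cKO library B. The means were 9135 ± 5095 in cKO and 17475 ± 2024 in wild type (SD, n = 2 each). The log2 fold change was −1.05 ± 0.40 (standard error), with a 95% interval from −2.06 to −0.05 (limma, adjusted p = 0.771). Leaving out cKO library A gave −0.45, and leaving out cKO library B gave −1.65.

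Gngt2 (ENSMUSG00000038811, chromosome 11, 95837216 to 95845734 of GRCm38, plus strand), the cone gamma subunit that anchors the complex in the membrane, had 8564 and 10047 normalized counts in cKO libraries A and B, against 10888 and 13058 in wild-type libraries A and B. All 4 libraries were close, and both cKO libraries lay below both wild-type libraries. The means were 9305 ± 1049 in cKO and 11973 ± 1535 in wild type (SD, n = 2 each). The log2 fold change was −0.36 ± 0.19 (standard error; limma, adjusted p = 0.771), and the log2 ratios within tags A and B were −0.35 and −0.38. Leaving out wild-type library B gave −0.23. Its exons share 234 bases with those of Abi3 on the opposite strand. Abi3 had 2.79 and 249.9 normalized counts in cKO libraries A and B, against 451 and 487 in wild-type libraries A and B, far below Gngt2 in every library.

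The phosphodiesterase genes were the members whose groups overlapped. Pde6c (ENSMUSG00000024992, chromosome 19, 38132781 to 38183958 of GRCm38, plus strand), the catalytic subunit that breaks down cyclic GMP, had 330 and 1193 normalized counts in cKO libraries A and B, against 1103 and 1832 in wild-type libraries A and B. cKO library B was above wild-type library A. The means were 762 ± 611 in cKO and 1467 ± 515 in wild type (SD, n = 2 each), a log2 fold change of −1.18 ± 0.63 (standard error; limma, adjusted p = 0.771). Leaving out cKO library A gave −0.25, and leaving out cKO library B gave −2.10.

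Pde6h (ENSMUSG00000064330, chromosome 6, 136923832 to 136968865 of GRCm38, plus strand), the inhibitory subunit that holds the enzyme off in the dark, had 55.9 and 502 normalized counts in cKO libraries A and B, against 373 and 510.1 in wild-type libraries A and B. Only cKO library A, with 20 reads of this gene, was low; cKO library B was at 98.5% of wild-type library B. The means were 279 ± 316 in cKO and 441 ± 97.1 in wild type (SD, n = 2 each). The log2 fold change was −1.37 ± 1.00 (standard error; limma, adjusted p = 0.771), against −0.62 in edgeR and −0.64 in DESeq2. Without cKO library A it had the opposite sign, 0.20. Its exons share 136 bases with those of Arhgdib on the opposite strand, which had 72.6 and 163 in cKO libraries A and B, against 217 and 344 in wild-type libraries A and B.

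Cnga3 (ENSMUSG00000026114, chromosome 1, 37214434 to 37263384 of GRCm38, plus strand) encodes a subunit of the cone channel that closes on the loss of cyclic GMP. It had 514 and 610.2 normalized counts in cKO libraries A and B, against 790 and 866 in wild-type libraries A and B. The groups were apart, and the difference was alike at both tags, with cKO at 65.1% and 70.5% of wild type. The means were 562 ± 68.0 in cKO and 828 ± 53.7 in wild type (SD, n = 2 each). The log2 fold change was −0.56 ± 0.24 (standard error; limma, adjusted p = 0.771), and it lay between −0.68 and −0.44 over left-out libraries. Cngb3, the other channel subunit, named after its values were seen, had 659 and 1505 in cKO libraries A and B, against 1785 and 2370 in wild-type libraries A and B.

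**Figure D2:**
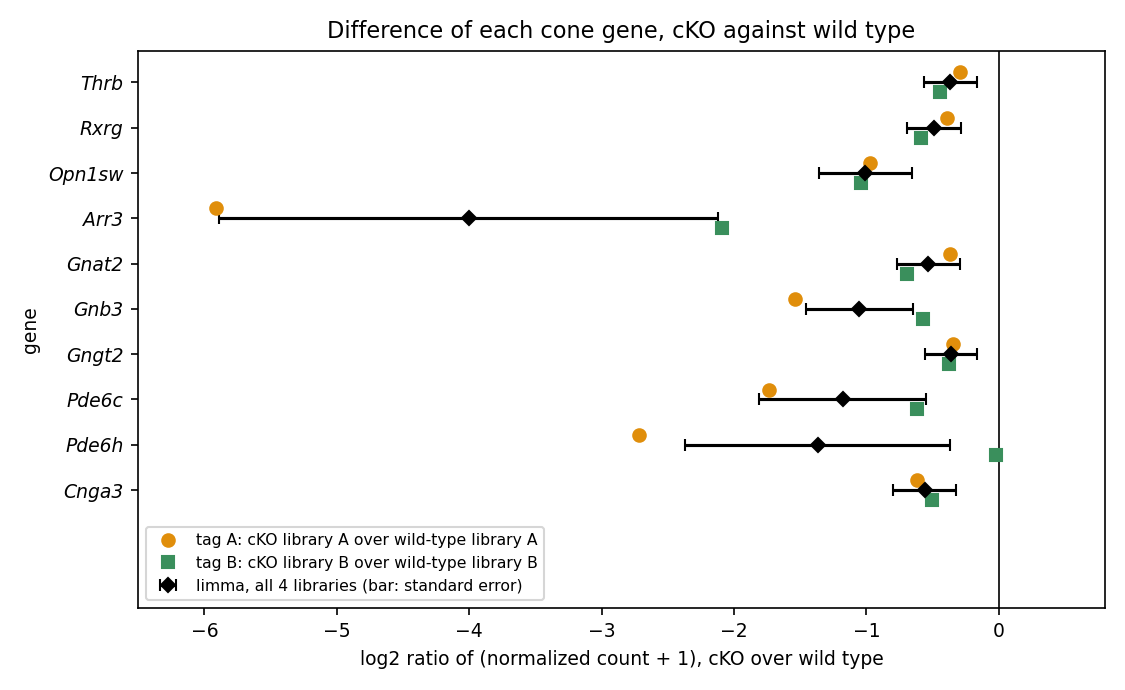
The plot shows, for each cone gene, the limma log2 fold change of cKO over wild type from all 4 libraries with its standard error (diamonds), and the log2 ratio within tag A (circles) and tag B (squares). All markers lie below 0, and the tags lie together for 6 genes and far apart for Arr3, Gnb3, Pde6c and Pde6h.

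The 10 genes differed in how far the tags lay apart, as the plot of the ratios within tags shows. For Thrb, Rxrg, Opn1sw, Gnat2, Gngt2 and Cnga3 the log2 ratios at the 2 tags were within 0.33 of each other. For Arr3, Gnb3, Pde6c and Pde6h the ratio at tag A was lower by 0.97 or more. In cKO library A these had 0 reads (Arr3), 20 reads (Pde6h), 118 reads (Pde6c) and 1980 reads (Gnb3), and the other members had 184 reads (Cnga3) to 3065 reads (Gngt2). The part of coverage in the gap between tags was not tested. These groups were formed after the values were seen and carry no test.

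Levels of different genes were compared as normalized counts per kb of annotated exon. In wild type the order was Gnb3 (6639), Gngt2 (6379), Opn1sw (3489), Gnat2 (708), Rxrg (603), Pde6c (494), Thrb (263), Cnga3 (209), Pde6h (56.3) and Arr3 (41.4), each a mean level of 2 libraries per kb. Neighbours whose wild-type libraries overlapped were Gnb3 and Gngt2, Gnat2 and Rxrg, Rxrg and Pde6c, and Pde6h and Arr3; the other neighbours did not overlap. In cKO the mean levels per kb had this order except that Gngt2 (4958) was above Gnb3 (3471). Neighbours whose cKO libraries overlapped were Gngt2 and Gnb3, Gnb3 and Opn1sw, Pde6c and Thrb, and Pde6h and Arr3. The cKO mean hides a difference between its libraries for Pde6c, which in library A had a level per kb of 111, below Thrb (196) and Cnga3 (130), and in library B one of 402, above both. The beta and gamma subunit genes were thus several times above the alpha subunit gene, per kb of exon, in all 4 libraries. The exon bases of some members, such as the 7846 of Pde6h and the 2557 of Opn1sw, include a longer annotated transcript. Their levels per kb depend on that annotation.

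**Figure D3:**
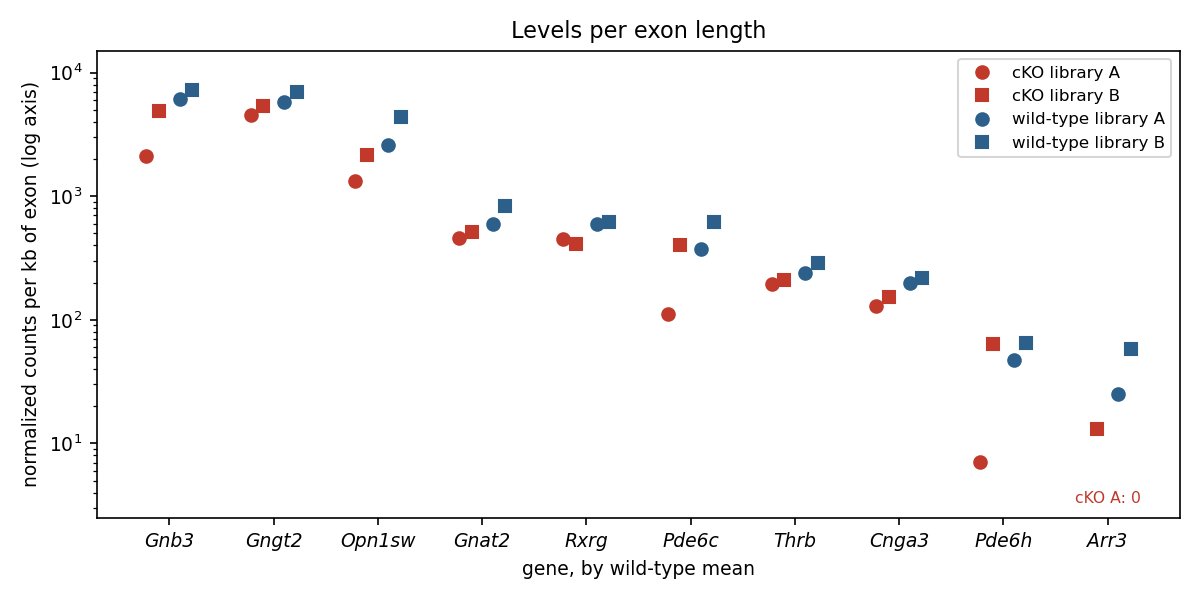
The plot gives normalized counts per kb of exon on a log axis for the 10 genes, ordered by the wild-type mean, with cKO libraries in red and wild-type libraries in blue. Gnb3, Gngt2 and Opn1sw are the highest in every library, and Arr3, at 0 in cKO library A, is written in because a log axis has no 0.

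Of the cone genes of the light response, 7 were set against a rod counterpart each (Pde6c against both rod catalytic subunits) as a log2 ratio of cone to rod gene within a library, in 8 pairs. An exact two-sided permutation test over 2 against 2 libraries cannot go below p = 0.333, and the adjusted p over the 8 pairs was 0.889 for 6 of them and 1 for the other two, so these are values without a call. For Pde6c against Pde6b the ratio differed by −0.13 between cKO and wild type. Ratios did not overlap between the groups in 3 of the 8 pairs. Under that permutation such a split has a probability of 0.333 in any pair, so the count carries no result about the pairs. The log2 ratio of Gnb3 to Gnb1 differed by −1.25, with −3.12 and −1.47 in cKO libraries A and B and −1.14 and −0.95 in wild-type libraries A and B; Gnb1 is made in most cells and not only in rods. The log2 ratio of Gngt2 to Gngt1 differed by 0.57, with 4.25 and 3.74 in cKO libraries A and B and 3.33 and 3.51 in wild-type libraries A and B. The log2 ratio of Pde6c to Pde6a differed by 2.92, but Pde6a had 0 reads in cKO library A, so that value depends on the pseudocount.

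The other cone to rod ratios overlapped between the groups. The differences were −3.25 for Arr3 against Sag, −0.53 for Gnat2 against Gnat1, −1.03 for Pde6h against Pde6g and 0.47 for Cnga3 against Cnga1. In 6 of the 8 pairs the difference had the same sign at both tags, and in 2 it did not. Pde6h against Pde6g had −2.66 at tag A and 0.59 at tag B. The rod genes themselves had log2 fold changes of −0.75 for Sag, 0.00 for Gnat1, 0.19 for Gnb1, −0.94 for Gngt1, −4.10 for Pde6a, −1.05 for Pde6b, −0.34 for Pde6g and −1.03 for Cnga1. With the rod channel subunit gene Cngb1 (−1.25), named after its values were seen and set in no pair, 7 of these 9 were lower in cKO, with a median of −0.94, beside −0.78 for the 10 cone genes; the difference between the lists was not tested. Limma called 0 of the 9, with 4 lower at an unadjusted p under 0.05, where 1.7% of all genes were. Without cKO library A the rod median was −0.86, beside −0.44 for the 10 cone genes. Without cKO library B the rod median was −0.63, beside −1.02 for the cone genes. The order of the lists thus changed with the cKO library left out, and each of these fits has only 1 cKO library.

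**Figure D4:**
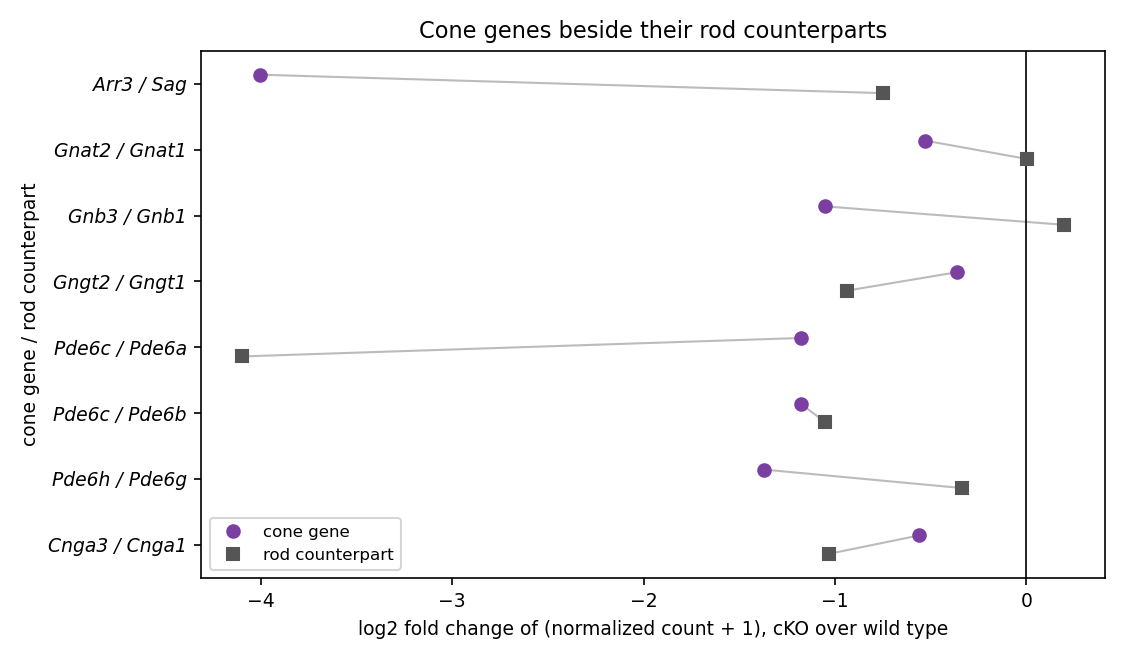
The plot sets the log2 fold change, cKO over wild type, of each cone gene (circles) beside that of its rod counterpart (squares), joined by a line, for 8 pairs. Pde6c and Pde6b lie close at −1.18 and −1.05, while Gnb3 lies left of Gnb1 and Gngt2 right of Gngt1; the far-left points are Arr3 and Pde6a, both at 0 reads in cKO library A.

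Further genes of the cone light response were mostly lower in cKO as well, with none called by limma. Of 21 listed genes of the pathway that cones use, most of them shared with rods, 20 were tested, and of these 18 were lower and 2 higher in cKO; the median log2 fold change was −0.84. Over all genes 53.3% were lower. Limma called 0 of the 20, with 8 lower at an unadjusted p under 0.05, beside 1.7% of all genes. The most abundant were Pdc, phosducin, which binds the transducin beta and gamma subunits, with a log2 fold change of −0.70, and Cacna2d4, a calcium channel subunit of the photoreceptor synapse, with −0.84 (limma, adjusted p = 0.771 for both). Without cKO library A the median of the list was −0.52. Of 18 listed transcription factors and cofactors of the developing retina, not all of them particular to cones, 14 were lower and 4 higher. Their median was −0.46, or −0.26 without cKO library A. Otx2, which starts the photoreceptor programme, had −0.40, Rorb had −0.49 and Crx had −0.60. The 4 higher genes were Nr2f1 (0.23), Foxn4 (0.17), Olig2 (0.06) and Nr2f2 (0.04). Nr2e3, which represses cone genes in rods, had −1.20; DESeq2 called it (adjusted p = 0.0375), the only gene it called, and limma called it without cKO library A. Crx, Nr2e3 and the 4 higher genes were named after their values were seen.

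Genes that supply or share the receptors' signals did not lean to one side. Of 12 genes of thyroid hormone and RXR signalling, 6 were lower and 6 higher, with a median log2 fold change of −0.07 and 0 called by limma, edgeR or DESeq2. Thra, the other thyroid hormone receptor gene, had 0.23, beside −0.37 for Thrb. Rxra and Rxrb had 0.15 and 0.02, beside −0.49 for Rxrg. Ncor1, a corepressor of these receptors, had −0.22, and Dio3, the enzyme that inactivates thyroid hormone, had 0.37. None of these was called, and the differences between the receptor genes were not tested; Rxra, Rxrb and Dio3 were named after their values were seen.

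Markers of some other cells also differed between the groups. The 12 microglial markers were all lower in cKO, 11 of them at an unadjusted p under 0.05 (1.7% of all genes were lower at that level) and 0 called by limma; their median log2 fold change was −2.63, or −1.20 without cKO library A, when limma called 8 of them lower, against 0.359% of all genes. They summed to 9.6% and 46.8% of the wild-type mean in cKO libraries A and B, with Aif1 at 0 in library A, against 102% and 98.4% in wild-type libraries A and B. The 10 cone genes summed to 47.6% and 74.2% of the wild-type mean in cKO libraries A and B, against 87.4% and 113% in wild-type libraries A and B, so both lists were lowest in cKO library A. The 10 markers of G2 and M phase summed to 120.1% and 110.4% in cKO libraries A and B, against 95.9% and 104% in wild-type libraries A and B, with 9 of 10 higher in cKO; their median log2 fold change was 0.40, or 0.02 without cKO library A. Of the tested bipolar markers 7 of 8 were lower, with a median of −0.22, and 3 of 10 ganglion cell markers were lower, with 0.13; bipolar cells also make Gnb3, and ganglion cells Rxrg. Amacrine and horizontal cell markers had a median of 0.00, pigment epithelium markers 0.06 and astrocyte markers −0.70, with 6 of 6 lower. The tested endothelial markers, 3 lower and 3 higher, had 0.01, or −0.42 without cKO library A. Of the 8 listed, 4 were at 0 in cKO library A: Pecam1, Cdh5, Tie1 and Tek, named after their values were seen. Tie1 and Tek were too low to be tested. The part of these cells in the cone gene values was not tested.

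**Figure D5:**
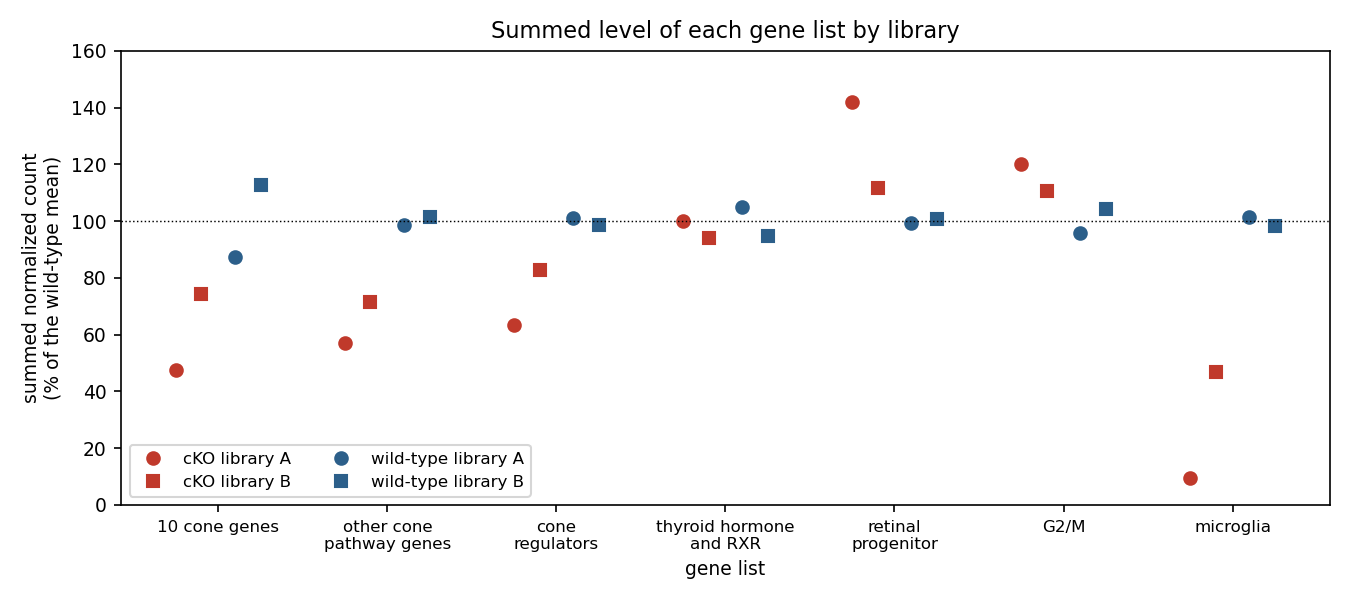
The plot gives the summed normalized count of each gene list in each library as a percentage of the wild-type mean, with cKO in red and wild type in blue. The 10 cone genes stand at 47.6% and 74.2% in the cKO libraries, the thyroid hormone and RXR genes near 100%, and the microglial markers at 9.6% and 46.8%; a sum is led by its most abundant genes.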

How the data were processed

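Per the submitters' processing notes the reads were handled with FastQC, TopHat, HTSeq and DESeq on mm10; the sources used here do not give versions, annotation or the strand setting. Per the file headers the authors' values are normalized counts, treated as a signal that stands for reads divided by 1 size factor per library. All values (100%) were whole multiples of the value of 1 read within 0.01 reads, so reads were recovered. The p-value and adjusted p-value columns are the authors' own in the deposited table. Both cKO columns are headed replicate 2 in the file, so they were assigned to the group and named by the tag in the column name. The libraries of a group did not agree within sampling noise (chi-square per degree of freedom 113 in cKO and 67.0 in wild type).

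Genes with a mean of at least 10 were tested with limma 3.58.1 (log2(value + 1), mean-dependent prior, R 4.3.3), a moderated two-sided test on 2 residual degrees of freedom. Alternatives were other pseudocounts, filters and scalings, limma without trend, edgeR 4.0.16, DESeq2 1.42.0, a tag block and leaving out each library. Exon lengths and positions come from GENCODE M21 on GRCm38. The members and gene lists were chosen with earlier results of these data known. Named were all members, their rod counterparts, Casz1 and, in each list of cone genes, members that passed or else the 2 with the highest mean; genes whose exons overlap those of a member were added to these, and other genes are said to be named later. A planned rod counterpart is not reported here.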

Additional observations from a re-analysis of the deposited data

How the results depend on the processing

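Over the 14 alternatives of the fit, 139 of 140 log2 fold changes of single cone genes were negative. The exception was Pde6h without cKO library A, at 0.20; its values over left-out libraries ran from −2.94 to 0.20. The count of all genes called by limma was 0 and became 1 with DESeq2, and it ranged from 0 to 5768 over left-out libraries (54 without cKO library A, 5768 without cKO library B). The count among the 10 cone genes ranged from 0 to 8 over left-out libraries. Among the other cone, regulator and thyroid hormone genes (20, 18 and 12 tested) the count was 1 with DESeq2 and ranged from 0 to 30 over left-out libraries. The 8 and the 30 came without cKO library B, where 39.8% of all 14480 genes were called in either direction. That fit has only 1 cKO library, so these counts carry no result about the lists. The median of the 10 was −0.58 with edgeR and −0.60 with DESeq2, and ranged from −1.02 to −0.44 over left-out libraries. With the replicate block, the tags as a term, limma called 0 genes, 0 of the 10 among them, with 6 of the 10 at an unadjusted p under 0.05, as were 1375 of the 14480 genes (1223 lower), against 274 (246 lower) without the block; the correlation of the deviations of libraries with the same tag was 0.258, and no label ties a tag to an experiment. Differences between cone and rod ratios that changed sign over left-out libraries ranged from −1.08 to 0.0079 for Gnat2 against Gnat1, −1.11 to 0.85 for Pde6c against Pde6b, −2.85 to 0.78 for Pde6h against Pde6g, −0.061 to 1.01 for Cnga3 against Cnga1. Apart from the fewer libraries in these fits, the cause was not tested. In cKO library A, where 1 read stands for 2.79 normalized counts, Arr3 and Pde6h had the fewest reads of the 10, 0 and 20. The part of depth in their values was not tested.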
